A study of Mus musculus with 32 samples.

Results

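Oxidative phosphorylation subunits were taken as the genes of the count table whose mouse symbol begins with Nduf and then a, b, c, s or v with a digit, with Uqcr, with Cox4 to Cox8 or with Atp5, or is Sdha, Sdhb, Sdhc or Sdhd. This rule found 78 of the 12451 genes in the table, of which 37 belong by name to complex I, 4 to complex II, 8 to complex III, 12 to complex IV and 17 to complex V. Among the symbols of the annotation, 18 more match the rule and had no row, including Ndufa4l2, Cox4i2, Cox6b2, Cox7a1 and Cox8b, which are known from hypoxic cells or specialized tissues, and several pseudogenes. Ndufa4 is counted with complex I by its symbol, although its protein is known as a subunit of cytochrome c oxidase. Atp5s, a coupling factor, is likewise counted with complex V by its symbol. The rule misses the nuclear subunit genes Cyc1, Ndufab1 and Usmg5, so the members are not the complete set. These genes were tested beside the members and were called in no comparison. The genes were measured in YUMM3.3 cells, a mouse melanoma cell line, by BRB-seq, a method that tags each sample's cDNA with a barcode before pooling and reads transcripts from their 3′ ends. Cells were left untreated or received IFN-γ at 20 ng/ml, Activin-A at a dose of 40 ng/ml or the factors combined. These are the doses of the paper's methods, and its figure legends for these cells state a higher Activin-A dose. RNA was taken after 4 hrs or 12 hrs, so that 8 groups of 4 wells gave 32 samples. All groups were wells of the same unmodified line, so the spread between wells, which every p-value below measures, may be technical.

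Oxidative phosphorylation makes ATP from the electrons of nutrients. Complex I (NADH dehydrogenase) and complex II (succinate dehydrogenase) pass electrons to ubiquinone, complex III hands them to cytochrome c, complex IV (cytochrome c oxidase) gives them to oxygen, and complexes I, III and IV pump the protons that drive the ATP synthase, complex V. Most subunits are encoded in the nucleus and a few in mitochondrial DNA, and IFN-γ is known to shift the metabolism of macrophages from respiration towards glycolysis.

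Total counts per well ranged from 654539 to 1455074, and the 78 genes held between 1.34% and 1.56% of them. Values below are CPM, that is, counts scaled to the library's total after TMM normalization, without a correction for transcript length. They are compared between groups and not between genes. In such bulk samples fewer cells of a kind and less RNA per cell cannot be told apart. The 7 melanocyte genes examined were counted in all 32 wells, with Pmel between 102 and 145 CPM and Sox10 between 9.96 and 30.0 CPM. Of the immune markers reported here, Cd3e and Adgre1 had no row, while Ptprc did not exceed 5 counts and Cd68 did not exceed 13 counts in any well. The endothelial and epithelial markers examined had no row, and of the fibroblast genes Col1a1, Pdgfra and Dcn, Col1a1 fell with both factors at 12 hrs from 43.3 to 28.3 CPM (log2FC -0.61, adjusted p = 0.0150 by edgeR), and its part in the results was not tested. Irf1, an early IFN-γ target, had a mean of 42.3 CPM in untreated wells and 783 CPM with IFN-γ at 4 hrs, and Ccn2, an Activin-A target, had 78.4 CPM untreated and 266 CPM with Activin-A. Replicate 1 of Activin-A at 4 hrs stood apart from the other wells. Its chi-square per gene against wells of its group was 2.45 to 2.89, while that of all other pairs was 1.16 to 1.54. The transcript mt-Nd1 was at 9882 CPM in that well and between 6131 and 6385 CPM in the other wells of its group, and the summed CPM of complexes I to V was 12888 against 14707 to 15063. The value without this well is given beside the median of the Activin-A comparison at 4 hrs.

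The nuclear subunit genes differed little across the 8 groups. Among the 73 members that averaged at least 10 counts, the highest group mean exceeded the lowest by a median factor of 1.19, and by more than 1.5 in 4 genes, Ndufb8 (1.59), Ndufa1 (1.55), Atp5k (1.51) and Atp5g2 (1.5). These were among the less abundant members, with lowest wells of 9 to 14 counts. The smallest factor, 1.06, was that of Atp5b, the catalytic beta subunit of the ATP synthase, whose group means lay between 1718 and 1819 CPM. None of these 73 members reached a factor of 2. The median coefficient of variation between wells of a group was 16.9% for the 10 members with 10 to 50 counts on average, 9.83% for 45 with 50 to 200 counts and 6.03% for 18 with more, so that small changes can be seen only in the abundant ones. Summed over complex I, mean CPM at 12 hrs was 4099 ± 175 (SD, n = 4 here and below) in untreated cells, 3909 ± 102 under the combination, 4003 ± 122 under IFN-γ and 4012 ± 64.4 under Activin-A. For complex V the sums were 6745 ± 110.5, 6399.5 ± 165, 6501 ± 261 and 6569.5 ± 113 CPM in the same order, and all wells with both factors (6247 to 6583) lay below all untreated wells (6597 to 6837). These sums depend on the scaling. With raw library totals the complex V means were 6779 CPM untreated, 6321 with IFN-γ and 6318 with both factors, and the IFN-γ wells (up to 6532) were then also below all untreated wells (from 6687). Complex IV had 2225 ± 129 CPM untreated and 2259 ± 67.7 CPM with both factors, complex III 1138 ± 41.7 and 1107 ± 47.7, and complex II 813 ± 44.6 and 760.4 ± 5.02, with overlapping wells in complexes II, III and IV.

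**Figure D1:**
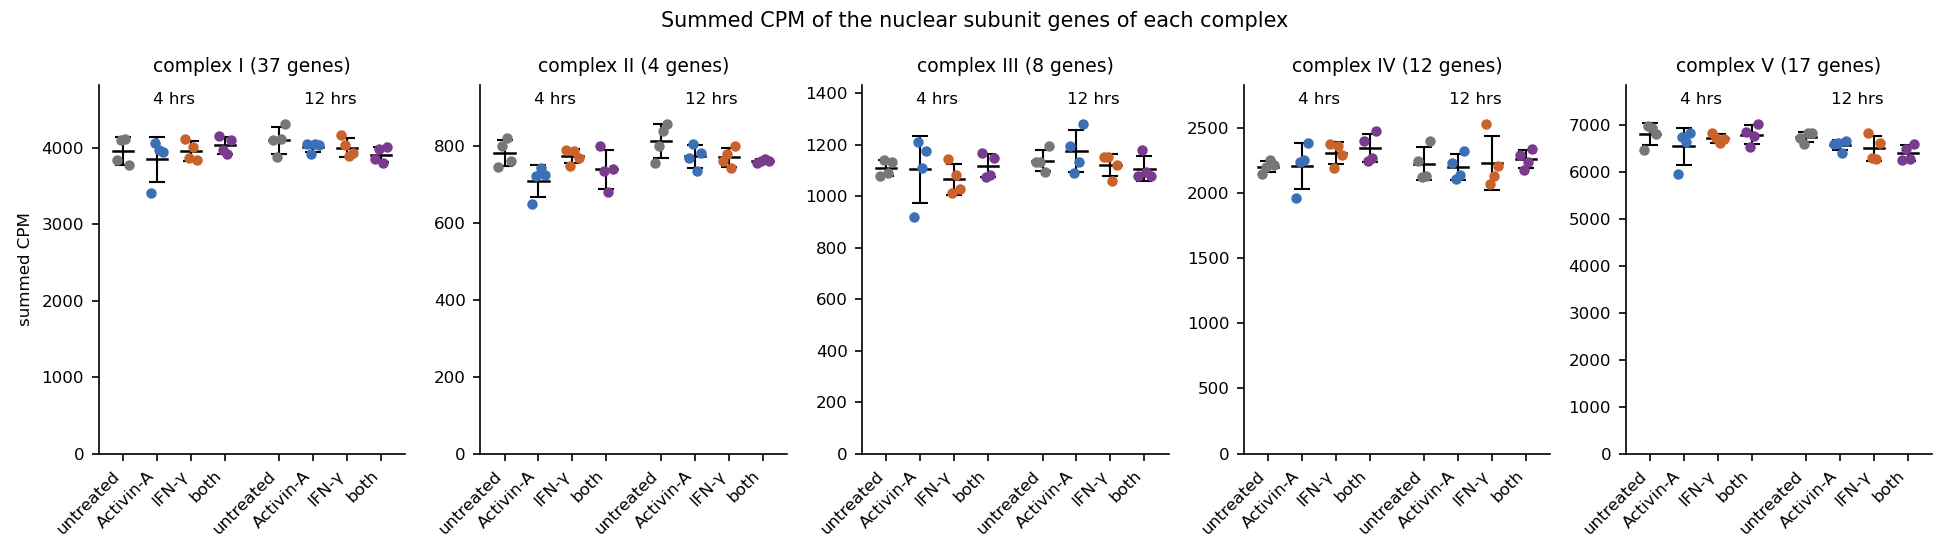
Summed CPM of the members of each complex (y axis, starting at 0) in the 8 groups. Points are wells, and lines with bars are the mean and SD of 4 wells. The 5 complexes keep nearly level sums, replicate 1 of Activin-A at 4 hrs is the low point in each complex of its group, and complex V with both factors at 12 hrs (6399.5 CPM) lies below untreated cells (6745 CPM).

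With IFN-γ for 12 hrs, 1 member rose and 1 fell. Both carry complex I names: Ndufv3 increased and Ndufa4 decreased, while every other tested member stayed short of the threshold. The quasi-likelihood test of edgeR was used, and an adjusted p under 0.05 was called. In each comparison, p-values were adjusted by Benjamini-Hochberg over all genes tested, with no adjustment across comparisons. Of all 8971 genes, 9.25% were called, against 2 of the 74 tested members (2.7%). At an unadjusted p under 0.05 there were 9 members (12.2%), beside 18.6% of all genes. The median log2 fold change (log2FC) was -0.03 over members and -0.01 over all genes. The 95% interval of 67 of 74 members lay within a 1.5-fold change in either direction and that of 73 within a 2-fold change.

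Ndufa4, a small subunit that sits on cytochrome c oxidase, was measured at 135, 155, 149 and 167 CPM in the untreated wells at 12 hrs. With IFN-γ it was at 112, 122, 110 and 104 CPM. All 4 treated wells were lower than all 4 untreated wells, and the mean went from 151 ± 13.6 to 112 ± 7.64 CPM (log2FC -0.43, SE 0.10, adjusted p = 0.000786 by edgeR). Ndufa4 was also lower with both factors, where the wells had 124, 117, 101 and 113 CPM, again all below the untreated wells (log2FC -0.40, SE 0.10, adjusted p = 0.00245 by edgeR). The comparisons with untreated cells at 12 hrs, here and for the genes below, share these untreated wells. Activin-A alone left Ndufa4 at 142, 154, 145 and 180 CPM, within the range of untreated cells except for the highest well (log2FC 0.03, 95% interval -0.15 to 0.21). Adding Activin-A to IFN-γ gave a log2FC of 0.03 against IFN-γ alone (95% interval -0.18 to 0.24). At 4 hrs the untreated wells had 135 to 159 CPM and the IFN-γ wells 136 to 176 CPM, which overlapped (log2FC 0.08, 95% interval -0.12 to 0.27). The difference between the IFN-γ effects at 12 hrs and at 4 hrs was -0.50 on the log2 scale (SE 0.14) and did not pass edgeR's threshold, with an adjusted p of 0.0917.

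Ndufv3, an accessory subunit of the NADH-binding arm of complex I, moved in the other direction. Its untreated wells at 12 hrs had 59.5, 42.1, 35.2 and 47.9 CPM, and the IFN-γ wells were tightly grouped at 67.9, 69.0, 67.0 and 69.8 CPM. Every treated well was above every untreated well, with means of 46.2 ± 10.3 and 68.4 ± 1.25 CPM (log2FC 0.54, SE 0.14, adjusted p = 0.00492 by edgeR). With both factors the wells were at 67.8, 64.2, 68.6 and 58.3 CPM, and the lowest of these was under the highest untreated well (log2FC 0.46, SE 0.15, adjusted p = 0.0297 by edgeR). That call was lost with DESeq2 (adjusted p = 0.136) and in 5 of the 8 fits that left out a well. With Activin-A alone at 12 hrs the mean was 53.3 ± 5.61 CPM (log2FC 0.18, 95% interval -0.12 to 0.47). At 4 hrs Ndufv3 had 51.1 ± 12.2 CPM untreated and 53.7 ± 6.32 CPM with IFN-γ, and the untreated wells were at 44.0, 47.1, 69.2 and 44.0 CPM. The IFN-γ effects at 12 hrs and 4 hrs differed by 0.46 on the log2 scale (SE 0.21, adjusted p = 0.607 by edgeR).

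AA467197, also called Nmes1 and a paralog of Ndufa4, is not a subunit by the symbol rule and is known as an inflammation-induced protein that can take the place of Ndufa4 in complex IV. It rose with IFN-γ from 213 ± 10.2 to 762 ± 24.8 CPM at 4 hrs (log2FC 1.84, SE 0.07, adjusted p = 3.55e-30 by edgeR) and from 307 ± 18 to 901 ± 73.0 CPM at 12 hrs (log2FC 1.55, SE 0.07, adjusted p = 2.42e-40 by edgeR). AA467197 was thus already high at 4 hrs, a time at which Ndufa4 wells of both groups overlapped. How the authors' counting treated reads shared between the related genes is not given in the sources used here.

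**Figure D2:**
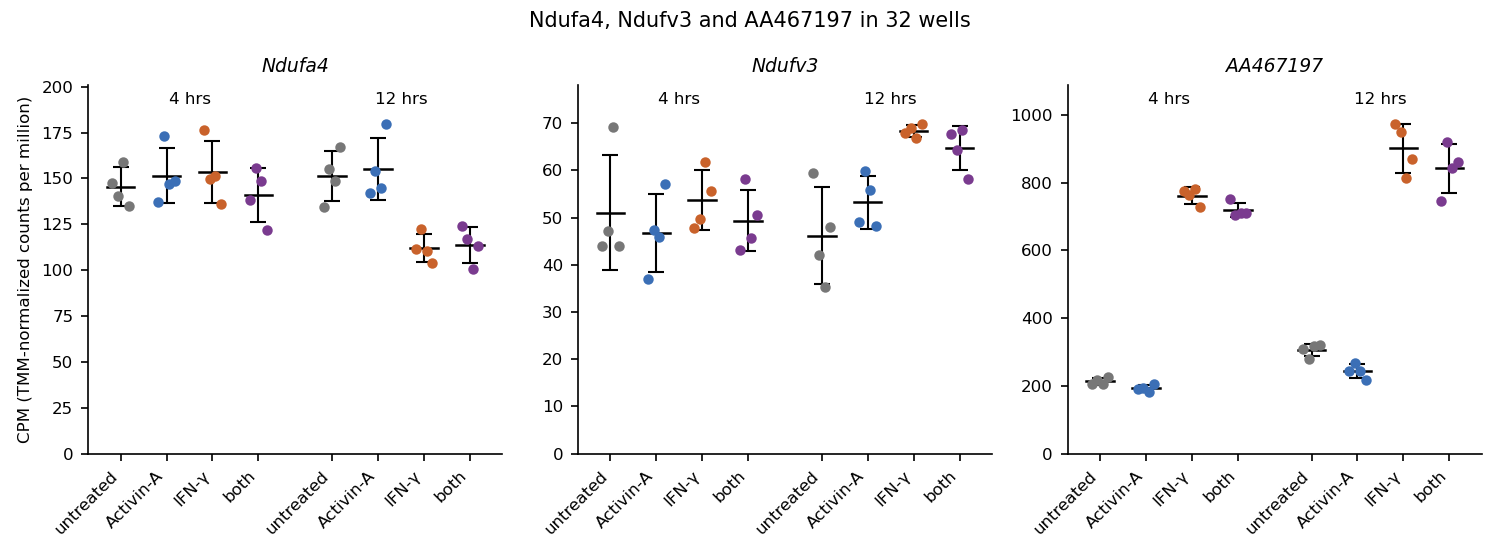
CPM of Ndufa4, Ndufv3 and AA467197 (y axes, each starting at 0) in the 8 groups. Points are wells, and lines with bars are the mean and SD of 4 wells. Ndufa4 is lower (112 against 151 CPM) and Ndufv3 higher (68.4 against 46.2 CPM) with IFN-γ than in untreated cells at 12 hrs, and AA467197 is higher with IFN-γ at both times.

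Promoters of the called genes are shown because nuclear respiratory genes are known to share binding motifs for NRF1, ETS factors (NRF2) and YY1 near their start sites. RefSeq windows of GRCm38.p6, from 250 bases before to 50 bases after a start, were found for 65 of the 78 members, and motifs were searched on both strands without regard to overlaps. The NRF1 motif was present in 17 of the 65 members (26.2%) and in 5.19% of the 27025 genes with a window. The ETS motif CCGGAAG was in 16 members (24.6%) beside 9.93% of genes, and the YY1 motif AAGATGG in 11 members (16.9%) beside 7.28%. At least 1 of these 3 motifs was in 38 members (58.5%) and in 20.0% of genes. The GAS motif TTCNNNGAA was in 5 members (7.69%) beside 9.55% of genes. The 27025 genes include many that had no row in the count table. Shares among the counted genes only were not computed, so an excess particular to the members cannot be read from these values. The windows of Ndufa4 (chr6:11907401-11907700, minus strand) and Ndufv3 (chr17:31519865-31520164, plus strand), the pair called with IFN-γ alone, held none of the 4 motifs and are therefore printed without capitals.
Ndufa4: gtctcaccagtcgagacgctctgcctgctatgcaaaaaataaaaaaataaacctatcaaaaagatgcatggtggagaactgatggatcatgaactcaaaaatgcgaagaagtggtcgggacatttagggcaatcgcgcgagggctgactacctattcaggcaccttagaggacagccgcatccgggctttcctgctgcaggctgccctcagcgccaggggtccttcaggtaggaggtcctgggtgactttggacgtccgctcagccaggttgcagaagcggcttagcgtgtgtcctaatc
Ndufv3: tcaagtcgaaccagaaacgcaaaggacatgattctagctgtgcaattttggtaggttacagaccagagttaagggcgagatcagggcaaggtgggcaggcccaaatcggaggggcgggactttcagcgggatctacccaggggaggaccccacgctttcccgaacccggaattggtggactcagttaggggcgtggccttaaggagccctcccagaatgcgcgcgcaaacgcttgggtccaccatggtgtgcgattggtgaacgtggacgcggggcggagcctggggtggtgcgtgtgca

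With both factors for 12 hrs, 5 of the 74 tested members differed from untreated cells, 1 higher and 4 lower, so that 6.76% of members were called beside 9.84% of all genes. In addition to Ndufv3 and Ndufa4 described above, these were the ATP synthase genes Atp5c1 and Atp5f1 and the complex III gene Uqcrh, all lower. At an unadjusted p under 0.05 there were 15 members (20.3%), beside 19.4% of all genes. The median log2FC was -0.05 over members and -0.01 over all genes. A log2FC below 0 was found for 47 of 74 members, beside 4624 of all 8971 genes. The 95% interval lay within a 2-fold change for all 74 tested members.

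Atp5c1 encodes the gamma subunit, the rotating shaft of the ATP synthase. It was at 817, 776, 794 and 788 CPM in untreated wells at 12 hrs and at 670, 685, 663 and 707 CPM with both factors. The groups did not overlap, and the change from 794 ± 17.2 to 681 ± 19.8 CPM was small and precise (log2FC -0.22, SE 0.06, adjusted p = 0.00202 by edgeR). With IFN-γ alone the wells were at 763, 739, 701 and 734 CPM, all below the untreated wells with 1 inside the range of both factors, and did not pass the threshold (log2FC -0.12, SE 0.05, adjusted p = 0.218 by edgeR). With both factors against IFN-γ alone the log2FC was -0.11 (95% interval -0.22 to 0.00225).

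Atp5f1, now also named Atp5pb, encodes the b subunit of the peripheral stalk that holds the ATP synthase head in place. Untreated wells at 12 hrs had 447, 484, 473 and 424 CPM and wells with both factors 363, 373, 384 and 430 CPM. One treated well reached into the untreated range, and the log2FC was -0.24 (SE 0.07, adjusted p = 0.00601 by edgeR). Under IFN-γ alone it had 413 ± 20.5 CPM against 457 ± 26.8 CPM untreated (log2FC -0.15, SE 0.06, adjusted p = 0.145 by edgeR). Uqcrh, the hinge protein of complex III that lies near cytochrome c1, had 165, 170, 170 and 187 CPM untreated and 131, 167, 116 and 143 CPM under the combination (log2FC -0.31, SE 0.09, adjusted p = 0.0191 by edgeR). Replicate 2 of the treated wells overlapped the untreated wells, and the call was lost with DESeq2 (adjusted p = 0.0891) and in 3 of the 8 fits without a well. None of the 5 genes passed the threshold between both factors and IFN-γ alone.

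Each of these 3 genes had a window with a searched motif, which is in capitals. In Atp5c1 (chr2:10080383-10080682, minus strand, the second of its 2 windows) it was the NRF1 motif, 17 bases before the start. The first window of Atp5c1 held none of the searched motifs and is not printed. Atp5f1 (chr3:105959214-105959513, minus strand) held the YY1 motif and a GAS motif, and Uqcrh (chr4:116075021-116075320, minus strand) the ETS motif 10 bases before the start. These matches describe the windows and not binding.
Atp5c1: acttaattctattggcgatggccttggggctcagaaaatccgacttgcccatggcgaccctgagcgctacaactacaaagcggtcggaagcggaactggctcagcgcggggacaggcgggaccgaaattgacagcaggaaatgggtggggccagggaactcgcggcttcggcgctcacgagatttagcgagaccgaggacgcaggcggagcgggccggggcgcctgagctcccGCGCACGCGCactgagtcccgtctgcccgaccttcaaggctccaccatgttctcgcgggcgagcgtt
Atp5f1: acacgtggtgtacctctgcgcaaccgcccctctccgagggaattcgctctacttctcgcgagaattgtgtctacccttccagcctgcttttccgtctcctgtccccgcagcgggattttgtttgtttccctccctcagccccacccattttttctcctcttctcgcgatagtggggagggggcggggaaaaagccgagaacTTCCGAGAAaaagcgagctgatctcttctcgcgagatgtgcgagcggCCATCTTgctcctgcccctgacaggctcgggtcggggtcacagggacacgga
Uqcrh: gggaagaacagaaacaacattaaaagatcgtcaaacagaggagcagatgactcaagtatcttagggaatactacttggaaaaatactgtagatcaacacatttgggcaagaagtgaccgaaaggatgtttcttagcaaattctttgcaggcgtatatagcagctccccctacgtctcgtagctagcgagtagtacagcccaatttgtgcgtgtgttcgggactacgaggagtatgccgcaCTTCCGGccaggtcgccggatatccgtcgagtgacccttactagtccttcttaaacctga

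The subunits that carry the redox centres and catalytic sites showed small differences with IFN-γ at 12 hrs, and none passed the threshold. In complex I, Ndufv1, the flavin-bearing subunit, had 123 ± 11.1 CPM untreated and 111 ± 11.3 CPM treated (log2FC -0.13, 95% interval -0.33 to 0.07). Ndufs1, which holds iron-sulfur clusters, had a log2FC of 0.07 (95% interval -0.20 to 0.34). Ndufv2, a partner of Ndufv1, had 329 ± 44.1 and 324 ± 26.0 CPM. In complex II, Sdha, the flavoprotein, had 188 ± 17.6 and 180 ± 4.79 CPM (log2FC -0.05, 95% interval -0.21 to 0.12) and Sdhb, the iron-sulfur subunit, a log2FC of 0.08 (-0.11 to 0.28). Sdhc, a membrane anchor, was at 266 ± 19.5 CPM untreated and 236 ± 14.1 CPM with IFN-γ (log2FC -0.17, SE 0.08, adjusted p = 0.179 by edgeR). Uqcrfs1, the Rieske iron-sulfur protein of complex III, had 263 ± 7.20 and 236 ± 12.8 CPM without overlap of wells, and still missed the threshold (log2FC -0.16, SE 0.08, adjusted p = 0.222 by edgeR). In complex V, Atp5a1 and Atp5b, which form the catalytic head, had log2FC of -0.07 (95% interval -0.17 to 0.04) and -0.05 (-0.15 to 0.04).

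Complex IV members differed little as well. Cox4i1, among the first nuclear subunits to assemble, had 462 ± 53.1 CPM untreated and 507 ± 146 CPM with IFN-γ at 12 hrs (log2FC 0.12, 95% interval -0.05 to 0.28), and without replicate 1 of IFN-γ the log2FC was -0.08. Cox7a2l, which helps to join complexes III and IV into supercomplexes, had 60.7 ± 10.7 CPM untreated and 57.0 ± 4.56 CPM with IFN-γ (log2FC -0.10, 95% interval -0.38 to 0.19). With both factors Cox7a2l was at 47.6 ± 10.7 CPM (log2FC -0.36, SE 0.16, adjusted p = 0.159 by edgeR). Cox5a, which joins Cox4i1 early in assembly, had a log2FC of 0.17 with Activin-A at 12 hrs (SE 0.06, adjusted p = 0.0987 by edgeR), from 627 ± 31.1 to 706 ± 50.9 CPM. It was the 1 complex IV member above 0 in that comparison, and 10 were below (median log2FC -0.09, lowest -0.30, 0 called). Cox6a1, the general form of subunit VIa, had 102 ± 19.0 CPM in untreated wells at 12 hrs, and the muscle form Cox6a2 did not exceed 2 counts in any well and was above 0 in 10 wells. Cox6b1, Cox7a2 and Cox8a had 139 ± 12.7, 79.4 ± 9.82 and 184 ± 3.44 CPM in the same wells.

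Some members were too low to test. Ndufb4 (1 to 11 counts per well), Cox6a2 and Atp5l (0 to 11 counts) were left out at both times, Atp5s (3 to 17 counts) at 4 hrs and Ndufb2 (2 to 14 counts) at 12 hrs, so that 74 members were tested at each time and 75 over all samples. Changes in such genes were not detectable at this depth.

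With Activin-A alone no member was called. At 12 hrs edgeR and DESeq2 each called 0 of 74 members, while edgeR called 2.41% of all genes, and at an unadjusted p under 0.05 there were 4 members with edgeR (5.41%, beside 11.3% of all genes) and 2 with DESeq2. The highest log2FC among members was that of Atp5k, the e subunit that holds ATP synthase dimers together. Its wells were at 24.0, 24.2, 28.6 and 16.4 CPM untreated and at 31.3, 34.8, 36.2 and 37.2 CPM with Activin-A, all above the untreated ones, and the adjusted p was 0.139 by edgeR (log2FC 0.55, SE 0.20). Beside the same untreated wells (23.3 ± 5.09 CPM), Atp5k had a mean of 32.1 ± 7.25 CPM under IFN-γ (log2FC 0.47, adjusted p = 0.153 by edgeR). Under the combination it had 32.5 ± 4.83 CPM (log2FC 0.47, adjusted p = 0.164 by edgeR). The lowest log2FC was that of Ndufb8, a complex I subunit whose protein level is widely used as a sign of complex I assembly, with a mean of 19.3 ± 3.47 CPM under Activin-A beside 26.7 ± 9.93 CPM (log2FC -0.50, SE 0.22, adjusted p = 0.331 by edgeR). The untreated wells of Ndufb8 spread from 14.0 to 37.9 CPM, a range that held all 4 treated wells. The median log2FC over members was -0.05, beside 0.00 over all genes, and 48 of 74 were below 0, beside 4545 of all 8971 genes.

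At 4 hrs Activin-A called 0 of 74 members with edgeR and with DESeq2, beside 1.64% of all genes with edgeR. There were 5 members with an unadjusted p under 0.05 (6.76%, beside 11.3% of all genes) and 3 by DESeq2. Ndufa1, a small membrane-arm subunit of complex I, had the highest log2FC, with 21.4 ± 2.44 CPM untreated and 30.1 ± 7.37 CPM treated (log2FC 0.45, SE 0.22, adjusted p = 0.406 by edgeR). Atp5mpl, a small subunit of the ATP synthase membrane part, had the lowest. Its untreated wells were at 62.4, 53.9, 68.1 and 61.9 CPM and its treated wells at 48.2, 42.9, 52.9 and 43.5 CPM, which did not overlap (log2FC -0.37, SE 0.15, adjusted p = 0.258 by edgeR). The median over members was -0.04, and 0.02 without replicate 1 of Activin-A, the well that stood apart. Among complex II genes, Sdhc had the lowest log2FC (-0.22, SE 0.08, adjusted p = 0.222 by edgeR). Replicate 1 of Activin-A also had the lowest complex II sum of its group (649 against 721 to 744 CPM).

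IFN-γ at 4 hrs called 0 of 74 members with edgeR or DESeq2, beside 5.06% of all genes with edgeR. At an unadjusted p under 0.05 there were 5 members (6.76%, beside 13.3% of all genes) and 3 with DESeq2. Ndufb1-ps, the mouse gene listed for the complex I subunit B1, had the highest log2FC among members with at least 10 counts, from 69.2 ± 11.6 to 86.2 ± 12.3 CPM (log2FC 0.34, SE 0.13, adjusted p = 0.184 by edgeR). Atp5mpl had the lowest, with IFN-γ wells at 47.8, 48.8, 54.4 and 38.6 CPM and 1 of them inside the untreated range (log2FC -0.39, SE 0.15, adjusted p = 0.179 by edgeR). The comparison shares its untreated wells with that of Activin-A. The median log2FC was 0.02 over members and -0.01 over all genes.

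With both factors at 4 hrs no member passed the threshold. Against untreated cells 0 of 74 members were called with edgeR and with DESeq2, beside 7.29% of all genes with edgeR. At an unadjusted p under 0.05 there were 6 members with edgeR (8.11%, beside 16.6% of all genes) and 3 with DESeq2. Ndufa1 came nearest, with 24.6, 20.2, 22.0 and 19.0 CPM in untreated wells and 40.1, 33.3, 29.5 and 29.8 CPM in treated wells. All treated wells of Ndufa1 were higher (log2FC 0.62, SE 0.21, adjusted p = 0.0613 by edgeR), and it was called when replicate 1 of Activin-A was left out of the shared spread (adjusted p = 0.0447 by edgeR). At 12 hrs Ndufa1 had 24.3 ± 2.29 CPM untreated and 25.8 ± 11.2 CPM with both factors.

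Whether Activin-A changed subunit expression in the presence of IFN-γ was read from both factors against IFN-γ alone and from the interaction. At 12 hrs 0 of 74 members differed between both factors and IFN-γ with edgeR or DESeq2, beside 1.03% of all genes with edgeR, and 3 members had an unadjusted p under 0.05 (4.05%, beside 10.3% of all genes), or 2 with DESeq2. Ndufb8 had the highest log2FC among members with at least 10 counts, and its wells with both factors (25.9 to 33.8 CPM) lay above those with IFN-γ (19.4 to 24.3 CPM) without passing the threshold (log2FC 0.39, SE 0.22, adjusted p = 0.581 by edgeR). Atp5g2, a gene for the c subunit of the ATP synthase rotor, had the lowest of these (log2FC -0.33, SE 0.25, adjusted p = 0.720 by edgeR). Ndufs3, a subunit of the hydrophilic arm of complex I, was lower in all wells with both factors, at 106 ± 8.77 against 129 ± 13.6 CPM (log2FC -0.28, SE 0.11, adjusted p = 0.304 by edgeR). At 4 hrs the count was again 0 with both tools, beside 0.81% of all genes, with 2 members at an unadjusted p under 0.05 (2.7%, beside 9.3% of all genes) and 1 by DESeq2. Ndufa1 had the highest log2FC (0.56, SE 0.21, adjusted p = 0.306 by edgeR) and Cox7a2 the lowest (-0.22, SE 0.13, adjusted p = 0.619 by edgeR).

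The interaction, which asks whether Activin-A acted differently in IFN-γ-treated and untreated cells, called 0 of 74 members at 4 hrs, where edgeR called 0% of all genes, and 0 at 12 hrs, where it called 0.0111%. DESeq2 called 0 members at either time. At an unadjusted p under 0.05 edgeR gave 2 members at each time, 2.7% beside 5.53% of all genes at 4 hrs and beside 6.82% at 12 hrs, and DESeq2 gave 2 and 1.

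Between untreated cells at 12 hrs and at 4 hrs, edgeR and DESeq2 called 0 of 75 members, beside 4.9% of all genes with edgeR. An unadjusted p under 0.05 was found for 7 members (9.33%, beside 17.5% of all genes) and for 2 with DESeq2. The median log2FC was 0.07 over members and 0.00 over all genes, and 48 of 75 were above 0, beside 4632 of all 9332 genes. Without a well the members' median was lower, between 0.0284 and 0.0567. The highest was that of Ndufb3, a membrane-arm subunit of complex I, with 31.0 ± 7.32 CPM at 4 hrs and 43.7 ± 7.86 CPM at 12 hrs (log2FC 0.51, SE 0.18, adjusted p = 0.0833 by edgeR). It passed the threshold when replicate 2 of the untreated wells at 4 hrs was left out (adjusted p = 0.0417 by edgeR). For the IFN-γ effect at 12 hrs minus that at 4 hrs, 0 of 75 members were called by edgeR or DESeq2, beside 0.579% of all genes with edgeR, and 7 members (9.33%, beside 7.38% of all genes) had an unadjusted p under 0.05, or 4 with DESeq2.

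**Figure D3:**
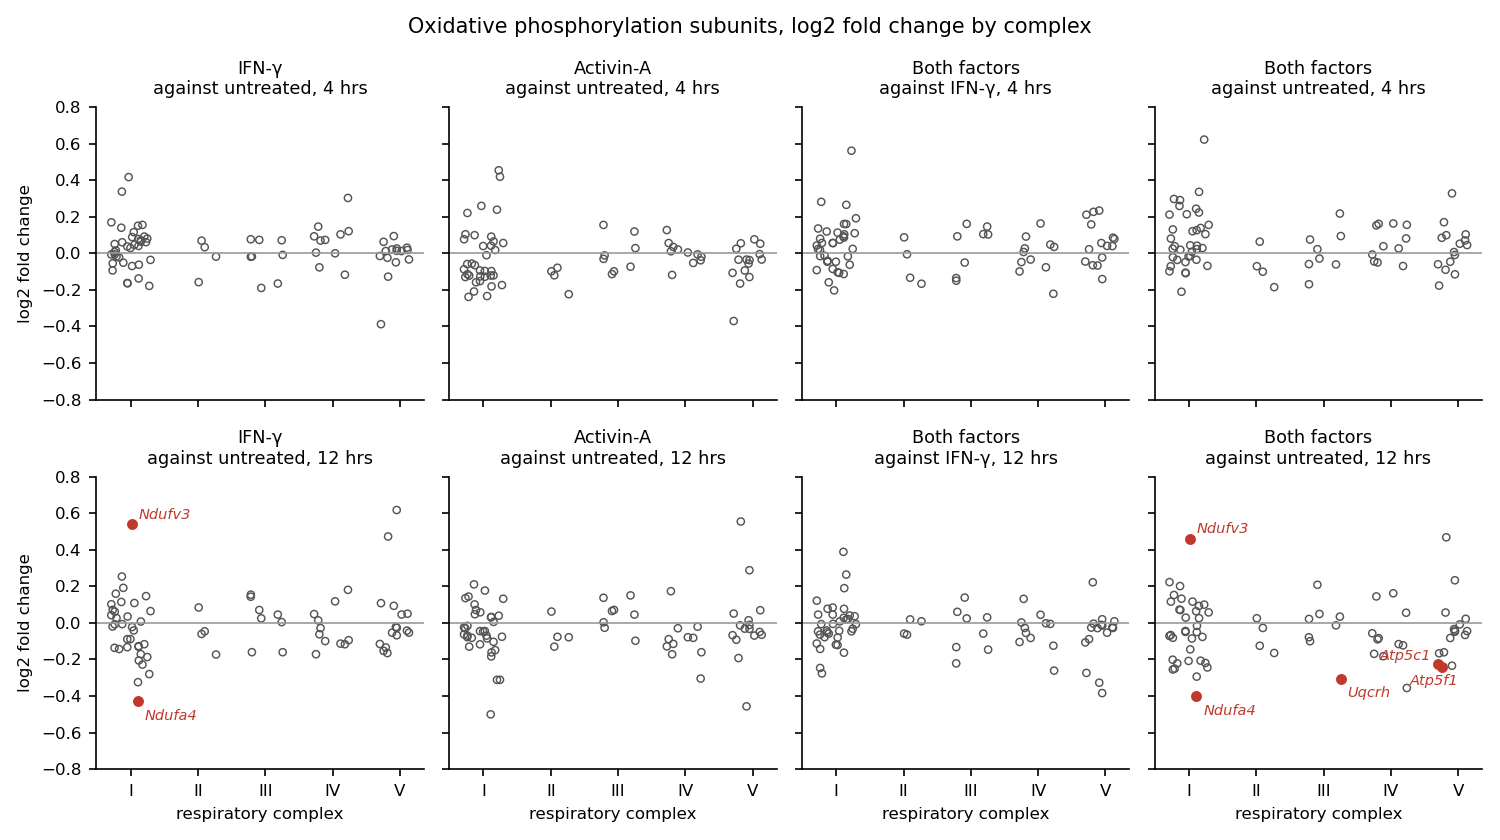
Log2 fold change of each tested member (y axis, 74 per panel) by respiratory complex (x axis) in the 8 comparisons between treatments. Open circles are members that did not pass an adjusted p of 0.05, and filled circles with names those that did. Points lie close to 0 in all panels, and the 2 genes called with IFN-γ and the 5 called with both factors appear at 12 hrs.

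Genes that work beside the subunits were read from lists. Of 47 assembly factors 39 were tested at each time, and 1 was called with IFN-γ at 12 hrs, beside 9.25% of all genes. This was Atpaf2, which helps to build the ATP synthase head and went from 28.2 ± 4.97 to 17.9 ± 3.76 CPM (log2FC -0.68, SE 0.22, adjusted p = 0.0350 by edgeR and 0.181 by DESeq2). Coa6, a copper chaperone for complex IV, was higher in untreated cells at 12 hrs than at 4 hrs (log2FC 0.67, SE 0.21, adjusted p = 0.0445 by edgeR and 0.131 by DESeq2). Of 17 electron carriers and enzymes of ubiquinone synthesis, 14 were tested at 12 hrs and 2 were called with both factors, beside 9.84% of all genes. Cycs, which encodes cytochrome c, rose with both factors from 61.8 ± 6.84 to 81.0 ± 6.88 CPM without overlap (log2FC 0.40, SE 0.13, adjusted p = 0.0416 by edgeR and 0.196 by DESeq2). Coq8b, a kinase-like protein of ubiquinone synthesis, also rose and had means of 6.83 ± 0.988 and 14.1 ± 4.79 CPM (log2FC 1.06, SE 0.37, adjusted p = 0.0490 by edgeR and 0.212 by DESeq2). At 4 hrs Coq6, a hydroxylase of the same pathway, was called with both factors against untreated cells (log2FC 0.68, SE 0.22, adjusted p = 0.0468 by edgeR and 0.188 by DESeq2). Of 12 regulators of nuclear respiratory genes, including Nrf1, Gabpa, Yy1 and Esrra, 10 were tested. With IFN-γ at 12 hrs 0 were called, beside 9.25% of all genes, and their median log2FC was -0.10, beside -0.01 over all genes. With Activin-A at 4 hrs 0 were called and their median was 0.06. Ppargc1a, the co-activator of mitochondrial biogenesis, averaged under 1 CPM in each group.

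Of the 13 genes of mitochondrial DNA, 7 had a row and 6 were tested. The transcript mt-Nd2 was lower in untreated cells at 12 hrs, at 1201 ± 22.8 against 1467 ± 108 CPM at 4 hrs (log2FC -0.29, SE 0.07, adjusted p = 0.00705 by edgeR and 0.0989 by DESeq2). For mt-Co1 edgeR called 4 comparisons, but its wells spread widely within groups, as in untreated cells at 12 hrs with 503, 319, 194 and 1139.9 CPM, all groups compared overlapped, and DESeq2 gave adjusted p between 0.419 and 0.999. No direction is read from mt-Co1.

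The glycolytic and TCA cycle genes, which feed respiration or make ATP without it, were examined with the same fits. Hk2, the inducible hexokinase that starts glycolysis, rose with IFN-γ from 34.1 ± 3.29 to 105 ± 9.99 CPM at 4 hrs (log2FC 1.63, SE 0.15, adjusted p = 1.02e-13 by edgeR) and from 29.2 ± 4.68 to 68.2 ± 2.46 CPM at 12 hrs (log2FC 1.24, SE 0.16, adjusted p = 2.48e-10 by edgeR). Hk1, the constitutive hexokinase, also rose, with 88.0 ± 5.42 CPM untreated and 128 ± 13.9 CPM treated at 12 hrs (log2FC 0.54, SE 0.11, adjusted p = 0.000107 by edgeR) and a log2FC of 0.57 at 4 hrs (adjusted p = 0.000171). Of 17 glycolysis genes tested, these were the 2 called with IFN-γ at 4 hrs (beside 5.06% of all genes), and at 12 hrs 4 were higher and 0 lower (beside 9.25% of all genes called in either direction). The other two were Aldoa, at 2748 ± 51.7 and 3055 ± 94.1 CPM (log2FC 0.15, SE 0.05, adjusted p = 0.0177 by edgeR, and up to 0.103 without untreated replicate 2 or IFN-γ replicate 4), and Slc16a3, a lactate exporter, at 43.1 ± 3.01 and 61.7 ± 14.2 CPM (log2FC 0.55, SE 0.15, adjusted p = 0.00828 by edgeR and 0.0837 by DESeq2). The list's median log2FC was 0.14 at 12 hrs, beside -0.01 over all genes. Among 17 TCA cycle genes 1 was called with IFN-γ at 12 hrs, beside 9.25% of all genes. Fh1, which encodes fumarase, fell from 192 ± 6.98 to 142 ± 8.59 CPM, all treated wells lower (log2FC -0.44, SE 0.09, adjusted p = 7.01e-05 by edgeR).

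With both factors at 12 hrs, Hk2 (log2FC 1.56, SE 0.15) and Hk1 (log2FC 0.40, SE 0.11) were again higher than in untreated cells. The Hk1 call was lost with DESeq2 (adjusted p = 0.0682) and without replicate 2 or 3 of the treated wells (up to 0.0971 by edgeR). Slc2a1, a glucose transporter, had 151 ± 29.6 CPM untreated and 186 ± 15.4 CPM treated (log2FC 0.30, SE 0.10, adjusted p = 0.0260 by edgeR and 0.145 by DESeq2). Idh2, a mitochondrial isocitrate dehydrogenase, was lower (log2FC -0.24, SE 0.07, adjusted p = 0.0201 by edgeR and 0.0742 by DESeq2). Fh1, Aldoa and Slc16a3, which were called with IFN-γ alone at 12 hrs, did not pass the threshold with both factors against untreated cells. They did not pass it between both factors and IFN-γ alone either. With Activin-A alone Ldha, the lactate dehydrogenase subunit, went from 2680.5 ± 72.3 to 2372 ± 98.5 CPM (log2FC -0.18, SE 0.05, adjusted p = 0.00975 by edgeR) and Aldoa from 2748 ± 51.7 to 2469 ± 151 CPM (log2FC -0.16, SE 0.05, adjusted p = 0.0383 by edgeR), both with all treated wells lower. The Aldoa call was lost with all 32 wells in the fit (adjusted p = 0.1 by edgeR) and in 5 of 8 fits without a well (up to 0.205), and the Ldha call in 2 of 8 (up to 0.0678, without replicate 3 of either group). AA467197 was also lower with Activin-A, at 243 ± 20.6 against 307 ± 18 CPM (log2FC -0.33, SE 0.08, adjusted p = 0.00354 by edgeR). In untreated cells between 4 hrs and 12 hrs, Ldha (log2FC -0.29), Slc2a1 (-0.39), Slc16a3 (-0.75) and Higd1a, a hypoxia-induced partner of complex IV (-0.66, SE 0.14, adjusted p = 0.00139 by edgeR), were lower at the later time, and AA467197 (0.52, SE 0.08) was higher.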

How the data were processed

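RNA of 32 wells of YUMM3.3 cells was sequenced by BRB-seq. The deposited table holds raw read counts per gene, which the authors made from their reads; the submitters' processing notes name STAR 2.7.10b, featureCounts, DESeq2 1.36.0 and the build GRCm39 (mm39). The annotation, the use of molecular identifiers and the treatment of shared reads are not given in the sources used here. Symbols were matched for 12437 of 12451 gene IDs, and 14 stayed without one. Totals of 654539 to 1455074 counts per well make 3 counts, the limit that a count of 0 allows, equal to 2.06 to 4.58 CPM, and such limits cover counting error only.

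Genes were filtered with filterByExpr and scaled by TMM in edgeR 4.0.16 (R 4.3.3, limma 3.58.1). The quasi-likelihood test was fitted on the 16 wells of a time point (9137 genes at 4 hrs, 8971 at 12 hrs) or on all 32 (9332 genes). Benjamini-Hochberg adjustment was made within each comparison, with a threshold of 0.05. Scripts were tested on simulated data. Alternatives were DESeq2 1.42.0, RLE scaling, other filters, a replicate block, all 32 wells in a fit, a threshold of 0.01 and leaving out each well. Same-numbered wells did not deviate together (mean correlation -0.000234, range -0.0894 to 0.0421), so the numbers were not taken as pairs. Promoter windows came from RefSeq (GRCm38.p6), a build other than that of the counts. A few items are not reported here. The members and lists were chosen with earlier results of these data known. Genes were named where called, where highest or lowest in a comparison among members averaging at least 10 counts, or as core subunits. Python 3.11.15, pandas 2.3.3 and matplotlib 3.10.9 were used.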

Additional observations from a re-analysis of the deposited data

Results flagged for a closer look

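Within groups of 4 wells, single wells stood far from the other 3 in 22 groups (5.61% of those checked), where chance gives about 1 in 20. Among members in untreated cells these were Ndufb10 at 206 CPM (others 155 to 164), Ndufv3 at 69.2 (44.0 to 47.1) and Sdha at 163 (176 to 178) at 4 hrs, and Sdha at 162 (194 to 199) at 12 hrs. With Activin-A at 12 hrs, Ndufa1 was at 31.0 CPM in 1 well (others 22.8 to 23.3) and Ndufs1 at 80.3 (61.9 to 63.1). With IFN-γ at 12 hrs, replicate 1 had Uqcrh at 148 CPM (155 to 157) and Cox7a2 at 108 (82.6 to 84.3). With both factors, Uqcrfs1 was at 276 CPM at 4 hrs (247 to 249.5) and Atp5b at 1799 at 12 hrs (1734 to 1740.3).

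Outside the members, Coq6 was at 35.2 CPM (24.7 to 26.3) with Activin-A at 4 hrs and at 13.4 (26.4 to 28.1) in untreated cells at 12 hrs. Idh2 was at 339 CPM (275 to 283) in untreated cells and at 225 (273 to 282) with IFN-γ at 4 hrs, where mt-Co1 was at 531 (278 to 303) and Higd1a at 83.8 (65.1 to 67.3). Atpaf2 was at 19.2 CPM (24.8 to 25.6) with both factors at 12 hrs. Replicate 1 of Activin-A at 4 hrs gave 3 of these values, with mt-Nd2 at 2123 CPM (1383 to 1483), Ldha at 2783 (3018 to 3032) and the sum of complexes I to V at 12888 (14707 to 15063). At 12 hrs the sum of complex I was 3916 CPM (4036.5 to 4051) in 1 Activin-A well and that of complex III 1178 (1079 to 1092) in 1 well with both factors. No explanation was tested.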

How the results depend on the processing

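With both factors at 12 hrs, 5 members were called by edgeR, and 3 were called with DESeq2 (Atp5c1, Atp5f1 and Ndufa4), 3 at an adjusted p under 0.01 and 3 to 5 when a well was left out, with 3 in the absence of replicate 1 or replicate 3 of the treated wells. Leaving out a well gave 2 to 3 members for IFN-γ at 12 hrs, and 0 to 1 for Activin-A at 12 hrs (Cox5a, adjusted p = 0.0252 by edgeR without Activin-A replicate 3), for untreated cells between times (Ndufb3) and for the IFN-γ effect at 12 hrs minus 4 hrs (Ndufa4, adjusted p = 0.0478 by edgeR without IFN-γ replicate 4 at 4 hrs). With Activin-A replicate 1 left out of the shared spread at 4 hrs, an alternative chosen after seeing the data, both factors called 1 member (Ndufa1). Over the same left-out wells the members' median log2FC ranged from -0.0732 to 0.0232 for Activin-A at 4 hrs, from -0.00285 to 0.106 for the interaction at 4 hrs and from -0.0315 to 0.0382 for that at 12 hrs. It ranged from -0.0527 to -0.0127 for IFN-γ, from -0.0642 to -0.0184 for Activin-A and from -0.0719 to -0.0242 for both factors against untreated cells at 12 hrs, from 0.0115 to 0.0520 for both factors against untreated cells and from 0.00365 to 0.0628 against IFN-γ at 4 hrs, and from -0.0766 to -0.0211 for the IFN-γ effect at 12 hrs minus 4 hrs. It also changed sign for IFN-γ at 4 hrs (down to -0.00117) and for both factors against IFN-γ at 12 hrs (up to 0.000421). The cause of these shifts was not tested.

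Single-gene values that turned direction were all short of the threshold. They ranged over left-out wells from -0.0352 to 0.0787 for Ndufa4 with Activin-A at 12 hrs and from -0.0174 to 0.0825 for Ndufa4 between both factors and IFN-γ. With IFN-γ at 12 hrs they ranged from -0.176 to 0.0139 for Cox7a2l, from -0.0805 to 0.209 for Cox4i1 and from -0.00410 to 0.174 for Sdhb.

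Of 8 fits without a well, the calls of genes beside the members were lost in 7 for Coq8b and Coa6, 6 for Coq6, 5 for Atpaf2, Cycs and Slc2a1 (both factors, 12 hrs), 4 for Idh2, 2 for Slc16a3 (IFN-γ, 12 hrs) and 1 for mt-Nd2 (without untreated replicate 4 at 4 hrs).

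A replicate block left 2 members called for IFN-γ and 5 for both factors at 12 hrs, and changed no member's call. Counts over all genes moved by over 1.5 times with DESeq2, to 85 from 150 and 45 from 74 (Activin-A, and both factors against IFN-γ, 4 hrs), 124 from 216 and 54 from 92 (the same at 12 hrs), 579 from 883 (both factors against untreated, 12 hrs), 284 from 457 (untreated, between times) and 0 from 1 (interaction, 12 hrs). Without a filter the interaction called 1 gene in place of 0 at 4 hrs and 8 in place of 1 at 12 hrs. Depth limits the members with few counts, whose wells varied most.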
